A study of Mus musculus with 16 samples.

Results

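Collagens are triple helices of chains, and each chain has its own gene. The chains described here are the 39 protein-coding genes of the count table whose symbol has the form of a collagen chain, after leaving out the 5 cartilage chains Col2a1, Col9a1, Col9a2, Col9a3 and Col11a2, out of 48440 genes in all. They were read in the ear skin of B6 mice, in 16 libraries from 4 groups of 4 mice. The groups were PMA-treated skin of mice on a high-fat diet (HFD), PMA-treated skin of mice on a normal diet (ND), untreated skin of HFD mice and untreated skin of ND mice. The HFD was given for 8 weeks. PMA is a phorbol ester, an activator of protein kinase C that inflames skin, and was applied at 200 ng per ear, and ears were taken 24 h later. The sources used here do not state the sex and age of the mice or whether untreated ears received solvent, and their protocol text reads alike for all samples, so that groups rest on the diet and treatment labels.

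Fibrillar collagens (types I, III, V, XI, XXIV and XXVII) form the rope-like fibrils of the dermis, and FACIT collagens sit on the surface of such fibrils. Network-forming collagens build sheets, with type IV in basement membranes and type VIII around vessels and in other matrices, and type VI forms beaded filaments that link cells to the fibrils. Anchoring collagens fasten the epidermis to the dermis: type XVII spans the membrane of basal keratinocytes in the hemidesmosome, and type VII forms the anchoring fibrils below it. Fibroblasts make most of the dermal chains, and keratinocytes make types VII and XVII. Col11a1, Col10a1 and Col27a1 are among the members but are also made in cartilage, which the ear contains.

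Library totals lay between 7739487 and 15571389 counts. Levels are CPM, counts scaled to a common library size after TMM, so that 1 CPM stood for about 8 to 16 counts. Of the 39 chains, 36 passed the filter on low counts, as 17604 of all genes did; Col19a1, Col26a1 and Col6a4 did not, and reached at most 0.901, 1.06 and 0.77 CPM in any library. Col6a5 passed although it had 0 counts in every untreated ND library, so its fold changes are not given and medians, counts of groups that do not overlap and shared signs are over the other 35 chains. Within a group, log2 CPM of 2 libraries correlated across genes with Pearson's r of 0.926 to 0.959, and no pair of libraries was a duplicate, the chi-square of their counts over genes being at least 7.60 per degree of freedom. The library IDs fall into 2 series, and their meaning is not given: the 4 untreated ND libraries and replicate 1 of untreated HFD skin are RHS, the other 11 are RHP. The PMA effect in ND mice and the ID series can therefore not be told apart, the diet effect in untreated skin is bridged by 1 library, and both groups of PMA-treated skin are RHP. Markers of the growing hair follicle, a sign of the hair cycle, were uneven, with summed levels of 2906 CPM in replicate 1 of PMA-treated HFD skin, 2228, 1640 and 606 CPM in replicates 1, 2 and 4 of untreated HFD skin, and at most 154 CPM in the other 12 libraries. Markers of keratinocytes and fibroblasts were present in all 16 libraries, with summed levels of 44866 to 60268 CPM and 2215 to 4728 CPM.

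A few chains made up most of the collagen message. On the scale of CPM per kb of gene length, Col17a1 held 31.5% of the sum over the 39 chains on average over the 16 libraries, Col1a1 20.8%, Col3a1 12.2%, Col6a1 8.22%, Col1a2 7.70% and Col8a1 5.81%, which together came to 86.2%. Col17a1 encodes type XVII, the keratinocyte chain of the hemidesmosome, and its share lay between 23.3% and 39.6% of the summed level per kb. Col1a1 and Col1a2 encode the chains of type I collagen and Col3a1 that of type III, the main fibril collagens of the dermis. Gene length here is that given with the counts, which for 33 of the 39 chains equals the merged exons of all annotated transcripts. For Col1a2 it is 12426 bases against 6563 bases for Col1a1, so that levels per kb are low for genes with long alternative exons. The FACIT chain Col16a1 had 1.40% of the summed level per kb, Col14a1 0.308% and Col12a1 0.274%, and the basement membrane chains Col4a1 and Col4a2 had 1.06% and 0.952%. Col7a1, the anchoring fibril chain, had 0.596%. Each of the 15 chains from Col10a1 down in this order had at most 0.153% of the summed level per kb.

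All chains together took 0.573 ± 0.089% of all counts in PMA-treated HFD skin, 0.964 ± 0.187% in PMA-treated ND skin, 0.766 ± 0.0689% in untreated HFD skin and 1.31 ± 0.18% in untreated ND skin (SD, n = 4 each). Their summed levels were 5822, 4913, 7089 and 5668 CPM in PMA-treated HFD skin and 8219, 12376, 9559.6 and 8966 CPM in PMA-treated ND skin, in the order of replicates 1 to 4, which is used for all lists of values. In untreated skin the sums were 8416, 7186, 7919 and 7006 CPM on HFD and 10178, 12415, 14416 and 13964 CPM on ND. The HFD libraries did not overlap the ND libraries, with or without PMA. In bulk tissue, fewer cells of a type and less RNA per cell cannot be told apart in any of the differences that follow.

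Several of the chains are neighbours in the genome (coordinates of GENCODE M21, build GRCm38). The type IV genes lie head to head in pairs. Col4a1 and Col4a2 lie on chromosome 8, where their first exons share 22 bases on opposite strands. Col4a4 and Col4a3 lie on chromosome 1 with starts 72 bases apart, and Col4a6 and Col4a5 on chromosome X with starts 1309 bases apart. Col3a1 and Col5a2 lie tail to tail on chromosome 1, and Col6a2, Col6a1 and Col18a1 follow each other on chromosome 10. Exon bases of 12 of the 39 chains also belong to some other annotated gene, for 3 chains to one on the same strand. The library type does not keep the strand, so that reads from the 22 shared bases of Col4a1 and Col4a2 cannot be assigned with certainty. The 141 bases that Col3a1 shares with a microRNA model lie on the same strand, where the strand would not help either. Col1a1 lies at chr11:94936224-94953042 on the plus strand in 52 merged exons, and Col17a1 at chr19:47646344-47692094 on the minus strand in 54 merged exons.

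Promoters are shown for 7 chains that the results turn on, from the fibrillar (Col1a2, Col3a1), beaded filament (Col6a1), network (Col4a1, Col4a2) and anchoring (Col17a1, Col7a1) classes. Each is the RefSeq window from 250 bases before to 50 bases after the gene's start (build GRCm38.p6), 5′ to 3′ on the gene's own strand, with 4 motifs in capitals: TGANTCA (the AP-1 element), CCAAT (the CCAAT box), TATAAA (the TATA box) and GGGCGG (the GC box), each searched on both strands. The windows lie at chr6:4505368-4505667, plus strand (Col1a2), chr1:45311288-45311587, plus strand (Col3a1), chr10:76725995-76726294, minus strand (Col6a1), chr8:11312777-11313076, minus strand (Col4a1), chr8:11312555-11312854, plus strand (Col4a2), chr19:47691993-47692292, minus strand (Col17a1) and chr9:108953336-108953635, plus strand (Col7a1).
Col1a2: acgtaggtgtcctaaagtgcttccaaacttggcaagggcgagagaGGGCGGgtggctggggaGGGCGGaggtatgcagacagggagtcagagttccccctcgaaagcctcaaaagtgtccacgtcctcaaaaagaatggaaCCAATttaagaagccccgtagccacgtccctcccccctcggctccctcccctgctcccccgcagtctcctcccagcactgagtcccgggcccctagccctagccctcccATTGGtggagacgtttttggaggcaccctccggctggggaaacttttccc
Col3a1: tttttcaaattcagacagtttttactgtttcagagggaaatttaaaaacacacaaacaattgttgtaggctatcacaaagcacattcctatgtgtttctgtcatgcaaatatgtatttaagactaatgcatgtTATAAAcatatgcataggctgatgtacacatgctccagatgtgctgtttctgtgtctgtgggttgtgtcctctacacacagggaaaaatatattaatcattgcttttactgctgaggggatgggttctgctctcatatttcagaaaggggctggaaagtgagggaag
Col6a1: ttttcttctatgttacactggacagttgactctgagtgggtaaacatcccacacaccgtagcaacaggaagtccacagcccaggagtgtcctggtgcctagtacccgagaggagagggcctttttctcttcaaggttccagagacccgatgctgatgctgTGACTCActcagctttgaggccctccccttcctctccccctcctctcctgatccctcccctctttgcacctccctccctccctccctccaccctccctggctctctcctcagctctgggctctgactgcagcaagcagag
Col4a1: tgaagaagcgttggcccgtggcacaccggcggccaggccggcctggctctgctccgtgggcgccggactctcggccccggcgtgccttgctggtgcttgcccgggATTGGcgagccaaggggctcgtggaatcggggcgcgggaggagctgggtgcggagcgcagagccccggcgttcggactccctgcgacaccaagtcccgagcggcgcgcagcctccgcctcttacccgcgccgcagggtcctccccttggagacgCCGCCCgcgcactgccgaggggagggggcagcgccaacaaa
Col4a2: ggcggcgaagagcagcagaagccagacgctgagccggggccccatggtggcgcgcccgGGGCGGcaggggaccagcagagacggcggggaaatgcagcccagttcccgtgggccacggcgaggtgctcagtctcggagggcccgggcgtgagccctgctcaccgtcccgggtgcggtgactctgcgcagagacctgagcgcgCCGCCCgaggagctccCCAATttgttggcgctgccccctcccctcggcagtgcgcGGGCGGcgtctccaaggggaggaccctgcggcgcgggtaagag
Col17a1: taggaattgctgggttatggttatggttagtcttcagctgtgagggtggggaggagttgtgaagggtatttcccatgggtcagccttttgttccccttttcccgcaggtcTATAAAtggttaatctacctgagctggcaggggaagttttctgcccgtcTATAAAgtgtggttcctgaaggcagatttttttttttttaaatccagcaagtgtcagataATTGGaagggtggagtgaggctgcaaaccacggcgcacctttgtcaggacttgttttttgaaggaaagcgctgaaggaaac
Col7a1: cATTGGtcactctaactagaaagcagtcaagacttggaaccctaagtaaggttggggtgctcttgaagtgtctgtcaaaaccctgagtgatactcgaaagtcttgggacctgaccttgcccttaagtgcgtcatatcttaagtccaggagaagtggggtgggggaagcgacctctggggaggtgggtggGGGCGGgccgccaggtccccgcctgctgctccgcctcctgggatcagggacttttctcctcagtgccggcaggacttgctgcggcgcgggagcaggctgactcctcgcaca
Windows were found for 32 of the 39 chains, and different motifs overlapped each other in 0 of them, while 2 GC boxes overlap in the Col8a2 window. The AP-1 element was present in 1 of 32 windows, that of Col6a1, or 3.12%, against 7.81% of all 32851 promoters of this length. The CCAAT box was present in 12 windows (37.5%, against 37.4% of all promoters) and the TATA box in 4 (12.5%, against 13.6%). The GC box was present in 20 windows (62.5%, against 35.7%). In the windows printed, Col1a2, Col4a1, Col4a2 and Col7a1 held both a CCAAT box and a GC box, and Col3a1 held a TATA box and none of the other motifs. Col17a1 held a TATA box at 2 places and a CCAAT box, with no GC box. The Col4a1 and Col4a2 windows share 78 bases, read from opposite strands. These matches describe the letters of the windows only. The RefSeq start of a window was 804 bases from the GENCODE M21 start for Col1a2, 124 bases for Col6a1 and 52 bases for Col17a1. For the other windows printed, the RefSeq and GENCODE starts were the same.

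The first question was how collagen message differed between the diets in inflamed skin. In PMA-treated skin, 12 of the 36 tested chains were lower on HFD and 0 were higher, where 1.26% of all tested genes were lower, 0.943% higher and 2.2% called in either direction (edgeR's quasi-likelihood test, Benjamini-Hochberg adjusted p below 0.05 over all 17604 genes). The median log2 fold change was -0.55 over the 35 chains other than Col6a5 and -0.03 over all tested genes. The chains that were lower were Col1a1, Col1a2, Col3a1, Col5a2 and Col27a1 of 9 fibrillar chains, Col6a1, Col6a2 and Col6a3 of 5 tested beaded filament chains, Col4a1, Col4a2 and Col8a1 of 9 network chains, and Col17a1 of the 2 anchoring chains. Of the 5 tested FACIT chains and the 6 tested chains outside these classes, 0 were called. For 14 chains all 4 HFD libraries lay below all 4 ND libraries, as for 4.71% of all tested genes, and for 0 chains they lay above, as for 3.93%. DESeq2 called 13 chains, a count given here without its share over all genes.

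Type I collagen, the most abundant fibril collagen of skin, was lower on HFD in both of its chains. Col1a2 stood at 693, 484, 887 and 656 CPM in PMA-treated HFD skin, against 1023, 1741, 1184 and 1141 CPM in PMA-treated ND skin. The groups did not overlap for Col1a2, which had a log2 fold change of -0.90 ± 0.18 (SE, adjusted p = 0.0103). Col1a1 stood at 1069, 668, 1424 and 779 CPM on HFD, against 1422, 2770.0, 1836 and 1516 CPM on ND. Replicate 3 on HFD, at the top of its group, reached slightly above replicate 1 on ND, so that the groups overlapped for Col1a1, with a log2 fold change of -0.94 ± 0.23 (SE, adjusted p = 0.0345). Col3a1, the type III chain that is co-assembled with type I, stood at 1096, 807, 1384 and 819.6 CPM on HFD and 1325, 2583, 1562 and 1609.8 CPM on ND. Its groups also overlapped, and its adjusted p of 0.0499 at a log2 fold change of -0.79 was the one nearest to the threshold. Replicate 2 of PMA-treated ND skin was the highest of that group in Col1a1, Col1a2 and Col3a1. Col5a2, a type V chain that helps to start fibrils and set their width, stood at 114, 78.2, 94.9 and 88.5 CPM on HFD, against 175, 221, 140.2 and 169.9 CPM on ND. The Col5a2 groups were apart, with a log2 fold change of -0.91 ± 0.17 (SE, adjusted p = 0.0077). Its partner Col5a1 was at 34.2 ± 8.28 CPM on HFD and 50.2 ± 7.19 CPM on ND (SD, n = 4 each) and was not called (log2 fold change -0.55, adjusted p = 0.187). Col27a1, a fibrillar chain best known from cartilage, fell to 26.8 ± 7.11 CPM on HFD, against 44.6 ± 7.75 CPM on ND (SD, n = 4 each, adjusted p = 0.0338).

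Type VI collagen held the chain with the smallest p, Col6a2. Its monomers assemble from Col6a1, Col6a2 and Col6a3, and all of these were lower on HFD in PMA-treated skin, with groups that did not overlap. Col6a2 stood at 119, 118, 132 and 144 CPM on HFD and 246, 308, 275 and 182 CPM on ND, with a log2 fold change of -0.98 ± 0.14 (SE, adjusted p = 0.00171). Col6a1 stood at 304, 287, 415 and 253 CPM on HFD and 575, 739.7, 572 and 459 CPM on ND, with a log2 fold change of -0.90 ± 0.16 (SE, adjusted p = 0.00605). In both chains replicate 2 was the highest and replicate 4 the lowest of the ND libraries. Col6a3, the longest of the chains, stood at 119.7, 108, 136 and 107 CPM on HFD and 196, 253, 189 and 179.6 CPM on ND, with a log2 fold change of -0.80 ± 0.15 (SE, adjusted p = 0.00813). Each of these chains thus had its highest HFD library below its lowest ND library. The related chain Col6a5 was near 0, with 0, 0, 1.80 and 0 CPM in PMA-treated HFD skin and 1.66, 2.12, 1.59 and 0.822 CPM in PMA-treated ND skin. Among the network chains, Col8a1, a short-chain collagen of vessels and wounds, stood at 205, 230.4, 274 and 299.9 CPM on HFD and 518, 373, 486 and 498 CPM on ND, with a log2 fold change of -0.89 ± 0.14 (SE, adjusted p = 0.00285). Each HFD library was below each ND library in Col8a1. The type IV chains Col4a1 and Col4a2, which together form the common basement membrane trimer, were also apart. Col4a1 had 91.2, 66, 85.8 and 73.5 CPM on HFD and 111, 179, 146 and 109.9 CPM on ND, and Col4a2 had 71.3, 61.5, 70.1 and 43.4 CPM on HFD and 96.3, 124, 101 and 95.1 CPM on ND. Their log2 fold changes were -0.79 and -0.75 (adjusted p = 0.0338 and 0.0186). Col17a1 stood at 1417, 1509, 1658 and 1877 CPM on HFD, against 1925, 2286, 2403 and 2360.1 CPM on ND. Every HFD library was below every ND library in Col17a1, with a log2 fold change of -0.47 and an adjusted p of 0.031. Col7a1 was at 46.1 ± 9.42 CPM on HFD and 61.9 ± 14.8 CPM on ND (SD, n = 4 each) and was not called (log2 fold change -0.43, adjusted p = 0.214). Of the FACIT chains, Col12a1, found on fibrils of tissues under load, was at 44.5 ± 18 CPM on HFD and 64.1 ± 12.6 CPM on ND, and Col14a1 at 19 ± 1.66 CPM on HFD and 29.6 ± 13.1 CPM on ND (SD, n = 4 each), neither called (adjusted p = 0.346 and 0.17).

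Counts of called chains under other fits are given without the share of all genes called in the same fit. Their changes are therefore not shown to be particular to the chains. The count of chains in PMA-treated skin depended on which libraries entered. It was 5 when the fit held only the 8 libraries compared, 5 and 7 without replicates 2 and 1 of the HFD group, 6 and 7 without replicates 2 and 3 of the ND group, and 4 without the 4 libraries highest in growing hair markers, a choice made after seeing the data. Col5a2, Col6a2, Col6a3 and Col8a1 were called under every alternative that was run. Of 19 alternatives, Col3a1 was lost under 15, Col17a1 under 10, and Col1a1, Col27a1 and Col4a1 under 8 each. Col4a2 was lost under 5, Col1a2 under 3 and Col6a1 under 1.

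**Figure D1:**
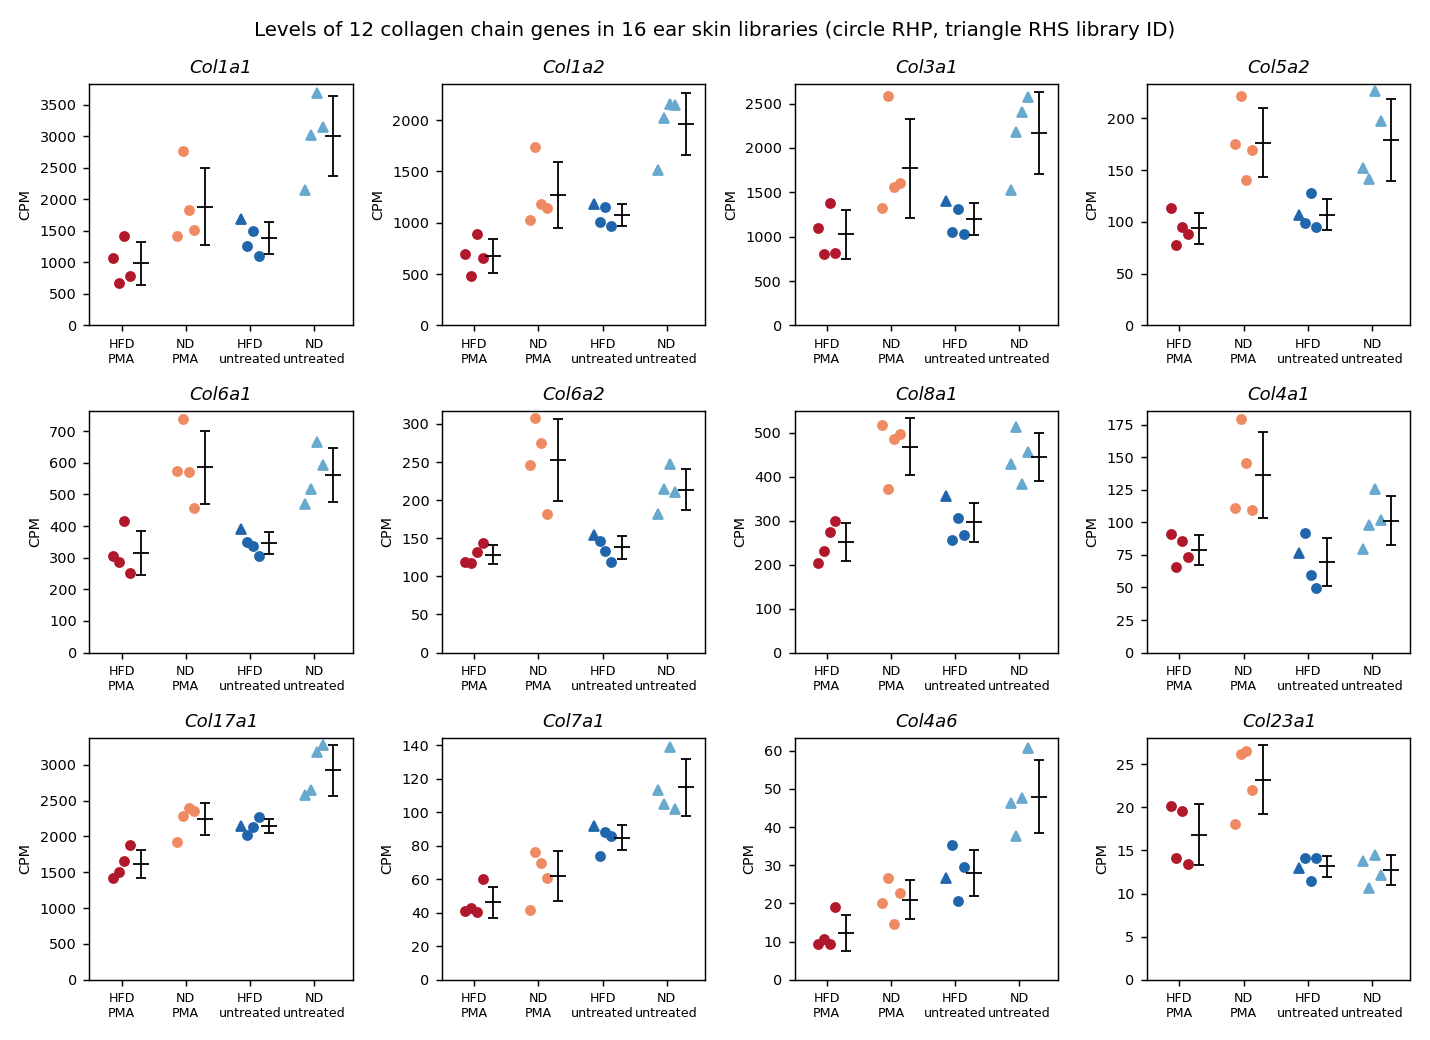
CPM (vertical axes, from 0) of 12 collagen chain genes in each of the 16 libraries, in the group order PMA-treated HFD, PMA-treated ND, untreated HFD and untreated ND; points are libraries, circles for the RHP and triangles for the RHS ID series, and bars show the mean ± SD of 4. In Col6a2 the PMA-treated HFD libraries at 118 to 144 CPM lie below the PMA-treated ND libraries at 182 to 308 CPM, whereas in Col4a6 the untreated groups lie above their PMA-treated groups.

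In untreated skin the same contrast of diets gave 11 lower chains and 0 higher ones, where 1.06% of all tested genes were lower, 2.87% higher and 3.93% called in either direction. The median log2 fold change was -0.54 over the chains and -0.02 over all genes. The lower chains were 6 of 9 fibrillar ones (Col1a1, Col1a2, Col3a1, Col5a1, Col5a2 and Col5a3), Col6a1 and Col6a2 of the beaded filament, Col8a1 of the network class, Col16a1 of the FACIT class and Col17a1 of the anchoring class. All 4 HFD libraries lay below all 4 ND libraries in 15 chains, as in 5.46% of all tested genes, and above them in 0 chains, as in 7.18%. Col1a2 stood at 1187, 1009, 1154 and 967 CPM in untreated HFD skin, against 1513, 2025, 2159.7 and 2148 CPM in untreated ND skin, with a log2 fold change of -0.86 ± 0.17 (SE, adjusted p = 0.00728). Col1a1 stood at 1681, 1261, 1497 and 1097 CPM on HFD, against 2146, 3019.5, 3683 and 3153 CPM on ND, with a log2 fold change of -1.12 ± 0.23 (SE, adjusted p = 0.0083). Both chains of type I were thus apart without overlap, and so was Col3a1, at 1399.9, 1055, 1314 and 1031 CPM on HFD and 1523, 2178, 2402 and 2578 CPM on ND (log2 fold change -0.86, adjusted p = 0.0234). Type V was lower in all of its chains. Col5a3, a type V chain of narrower expression, stood at 22.2, 19.9, 10.6 and 12.7 CPM on HFD and 31.6, 33.8, 50.8 and 35.5 CPM on ND, with a log2 fold change of -1.21 ± 0.26 (SE, adjusted p = 0.0124). Col5a2 was at 106, 98.8, 128 and 95 CPM on HFD and 152, 141, 226 and 197 CPM on ND, with a log2 fold change of -0.74 ± 0.17 (SE, adjusted p = 0.0146). Col5a1 was at 47.3, 44.6, 53.3 and 31.4 CPM on HFD and 49.6, 69.9, 95.5 and 85.3 CPM on ND, with overlapping groups and a log2 fold change of -0.77 (adjusted p = 0.0431).

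In type VI, Col6a1 stood at 391, 351, 336 and 306 CPM in untreated HFD skin and 470.0, 518, 666 and 594 CPM in untreated ND skin, with a log2 fold change of -0.70 ± 0.16 (SE, adjusted p = 0.0149). Col6a2 stood at 154, 147, 133 and 119 CPM on HFD and 182, 214, 248 and 210.1 CPM on ND, with a log2 fold change of -0.63 ± 0.14 (SE, adjusted p = 0.0159). For both, every HFD library was below every ND library. Col6a3 was at 125 ± 26.5 CPM on HFD and 163 ± 17.9 CPM on ND (SD, n = 4 each), with overlapping groups, and was not called (log2 fold change -0.38, adjusted p = 0.163). Col16a1, a FACIT chain found near basement membranes and fibrils of the dermis, stood at 110.1, 108, 120.2 and 98.8 CPM on HFD and 139, 147, 170.1 and 216 CPM on ND, with a log2 fold change of -0.62 ± 0.14 (SE, adjusted p = 0.0185). Col8a1 was at 296 ± 45.2 CPM on HFD and 446 ± 54 CPM on ND, and Col17a1 at 2144 ± 102 CPM on HFD and 2920.4 ± 359 CPM on ND (SD, n = 4 each). Their log2 fold changes were -0.59 and -0.45 (adjusted p = 0.0222 and 0.030), and neither chain's groups overlapped. Col4a1 and Col4a2 had 69.5 ± 18.4 and 57.5 ± 9.84 CPM on HFD, against 101 ± 18.9 and 84.7 ± 11 CPM on ND (SD, n = 4 each), and were not called (adjusted p = 0.134 and 0.0606). Col7a1, Col12a1 and Col14a1 were not called, with log2 fold changes of -0.44, 0.01 and -0.50. The counts under other fits that follow are again without the share of all genes called in the same fit. Their changes are not shown to be particular to the chains. With the ID series as a covariate, 0 chains were called in untreated skin, and Col1a1 had a log2 fold change of -0.84 with an adjusted p of 0.423. The count was 2, 5 and 5 without replicates 4, 2 and 3 of the HFD group, 3 and 5 without replicates 3 and 4 of the ND group, and 0 without the 4 libraries highest in growing hair markers, which leaves 1 untreated HFD library.

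The diet contrasts in PMA-treated and in untreated skin share no library. Of the chains lower on HFD, 8 were called in both: Col1a1, Col1a2, Col3a1, Col5a2, Col6a1, Col6a2, Col8a1 and Col17a1, which is 66.7% of the 12 in PMA-treated skin and 72.7% of the 11 in untreated skin. Shared calls were not counted over all genes, so this overlap is not shown to be particular to the chains. The sign of the fold change was the same in both contrasts for 28 of 35 chains (80%), as for 66.7% of all tested genes. In the diet by PMA interaction, which tests whether the diet effect differs with PMA, edgeR's quasi-likelihood test called 0 chains, where 0.00568% of all genes (1 gene) were called. DESeq2 called 0 chains as well. Of the 35 chains other than Col6a5, 0 had an unadjusted p below 0.05 in edgeR's test, where 4.63% of all tested genes did. Col6a5 had 2.72, 0, 0 and 0 CPM in untreated HFD skin and 0, 0, 0 and 0 CPM in untreated ND skin. The smallest p of the 35 chains was that of Col6a3, with an interaction of -0.41 on the log2 scale (unadjusted p = 0.0599). The chains called in 1 of the diet contrasts are therefore not shown to differ between PMA-treated and untreated skin. In the fit of group means to all libraries, not called in any contrast and not described singly were Col18a1, whose cleaved end is endostatin, at 45.8 to 107 CPM over the 16 libraries, Col11a1 at 18.2 to 49.7 CPM, and the low chains Col10a1, Col13a1, Col15a1, Col20a1, Col22a1, Col24a1, Col25a1, Col28a1 and Col6a6, none above 11.8 CPM in any library.

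**Figure D2:**
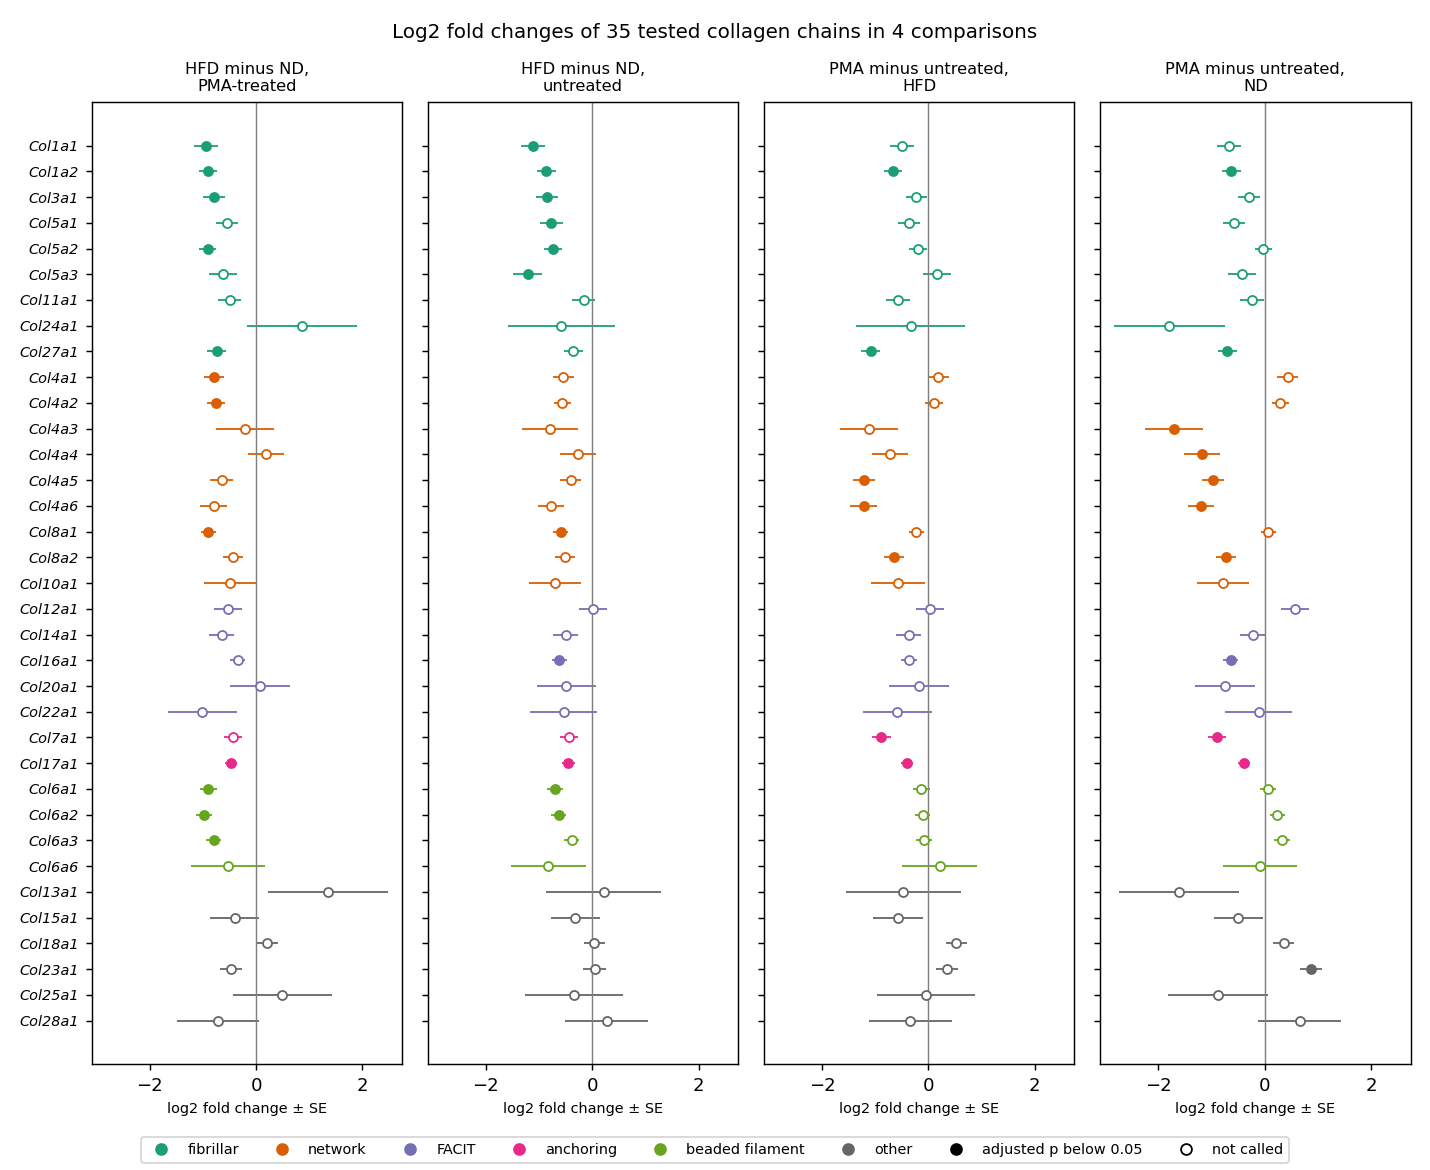
Log2 fold change ± SE (horizontal axes) of the 35 tested chains other than Col6a5, 1 row per chain coloured by class, for the diet effects in PMA-treated and untreated skin and the PMA effects in HFD and ND mice; filled points have an adjusted p below 0.05. Filled points of the diet effects all lie below 0, and those of the PMA effects lie below 0 except Col23a1 in ND mice.

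The next question was how PMA changed the chains within each diet. In HFD mice, 7 chains were lower after PMA and 0 were higher, where 4.6% of all tested genes were lower, 7.34% higher and 11.9% called in either direction. The median log2 fold change was -0.36 over the chains and -0.02 over all genes. In ND mice, 10 chains were lower and 1 was higher, where 3.99% of all tested genes were lower, 8.96% higher and 12.9% called in either direction, with a median of -0.43 over the chains and 0.00 over all genes. Groups did not overlap in 9 lower and 0 higher chains in HFD mice (7.93% and 10.8% of all genes) and in 8 lower and 1 higher of the 35 chains other than Col6a5 in ND mice (6.25% and 10.6%). The 7 chains lower in HFD mice, Col1a2, Col27a1, Col4a5, Col4a6, Col8a2, Col7a1 and Col17a1, were also lower in ND mice, which is 100% of the 7 and 70% of the 10. The same overlap was not counted over all genes. By class, the lower chains in HFD and ND mice were 2 and 2 of the 2 anchoring chains, 3 and 5 of 9 network chains, 2 and 2 of 9 fibrillar chains, 0 and 1 of 5 tested FACIT chains and 0 and 0 of 5 tested beaded filament chains. Col16a1, Col4a3 and Col4a4 were lower and Col23a1 higher in ND mice only by this count, and the interaction called none of them. The PMA contrasts of the 2 diets share no library, and 28 of 35 chains (80%) had the same sign in both, as 73.2% of all genes did.

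Within type IV, Col4a5 and Col4a6 fell with PMA in both diets, Col4a3 and Col4a4 were called lower in ND mice, and the common chains Col4a1 and Col4a2 were not called, a difference between chains that was not itself tested. Col4a5 and Col4a6 form trimers of epithelial basement membranes, including that of the skin. Col4a5 stood at 10.4, 10.4, 12.8 and 13.5 CPM in PMA-treated HFD skin, against 25, 29.4, 24.3 and 30.2 CPM in untreated HFD skin, with a log2 fold change of -1.21 ± 0.21 (SE, adjusted p = 0.000734). In ND mice it stood at 18.6, 14, 18.3 and 23.1 CPM with PMA, against 46.9, 25.3, 32.3 and 39.9 CPM without, with a log2 fold change of -0.97 ± 0.21 (SE, adjusted p = 0.00325). In each diet the PMA libraries lay below the untreated ones without overlap. Col4a6 stood at 9.34, 10.7, 9.39 and 19.2 CPM with PMA and 26.6, 35.4, 20.8 and 29.4 CPM without in HFD mice, with a log2 fold change of -1.22 ± 0.25 (SE, adjusted p = 0.00294). In ND mice Col4a6 stood at 20.1, 26.6, 14.6 and 22.8 CPM with PMA and 46.3, 37.6, 47.6 and 60.7 CPM without, with a log2 fold change of -1.19 ± 0.25 (SE, adjusted p = 0.00246). The Col4a6 groups were likewise apart in each diet. The pair Col4a3 and Col4a4, known from kidney and lung basement membranes, was low throughout, at 3.90 ± 2.42 and 5.15 ± 1.94 CPM with PMA, against 12.5 ± 3.73 and 11.6 ± 2.07 CPM without, in ND mice (SD, n = 4 each, adjusted p = 0.043 and 0.027). Col4a1 was at 79.1 ± 11.5 CPM with PMA and 69.5 ± 18.4 CPM without in HFD mice, and at 137 ± 33 CPM with PMA and 101 ± 18.9 CPM without in ND mice (SD, n = 4 each), with log2 fold changes of 0.19 and 0.43. Col4a2 had log2 fold changes of 0.10 in HFD mice and 0.30 in ND mice, and neither chain was called in either diet.

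Both anchoring chains fell with PMA in both diets. Col7a1 stood at 41, 42.5, 40.7 and 60.2 CPM with PMA, against 91.7, 74, 88 and 85.5 CPM without, in HFD mice, with a log2 fold change of -0.88 ± 0.17 (SE, adjusted p = 0.00199). In ND mice Col7a1 stood at 41.9, 75.9, 69.4 and 60.5 CPM with PMA, against 113, 105, 139 and 102 CPM without, with a log2 fold change of -0.89 ± 0.17 (SE, adjusted p = 0.00143). The Col7a1 groups were apart in HFD mice and apart in ND mice. Col17a1 stood at 1417, 1509, 1658 and 1877 CPM with PMA and 2149.7, 2018, 2138 and 2268 CPM without in HFD mice, and at 1925, 2286, 2403 and 2360.1 CPM with PMA and 2572, 2652, 3180.2 and 3277 CPM without in ND mice. The groups were apart in each diet, and the log2 fold changes of Col17a1 were -0.41 and -0.38 (adjusted p = 0.022 and 0.0302). Of the fibrillar chains, Col27a1 stood at 16.8, 28, 28.7 and 33.7 CPM with PMA and 50.04, 57.9, 55.1 and 63.9 CPM without in HFD mice, with a log2 fold change of -1.08 ± 0.18 (SE, adjusted p = 0.000512). In ND mice the Col27a1 log2 fold change was -0.70 (adjusted p = 0.0109). Col1a2 fell by 0.67 on the log2 scale in HFD mice and by 0.62 in ND mice (adjusted p = 0.0154 and 0.0206), while its partner Col1a1 was not called (log2 fold changes -0.49 and -0.67, adjusted p = 0.194 and 0.0605). Col3a1, Col5a1, Col5a2, Col6a1, Col12a1 and Col14a1 were not called in either diet, with log2 fold changes of -0.22, -0.37, -0.19, -0.14, 0.03 and -0.37 in HFD mice and -0.29, -0.58, -0.02, 0.06, 0.57 and -0.22 in ND mice. These values had no common sign in either diet. Col8a2, the second type VIII chain, was at 61 ± 11.9 CPM with PMA and 95.1 ± 4.17 CPM without in HFD mice, and at 82.2 ± 24.4 CPM with PMA and 135 ± 34.5 CPM without in ND mice (SD, n = 4 each, adjusted p = 0.0298 and 0.014). Col16a1 was at 108 ± 3.85 CPM with PMA and 168 ± 34.5 CPM without in ND mice (SD, n = 4 each, adjusted p = 0.00489). Col23a1, a transmembrane collagen, was the chain that rose: it stood at 18.1, 26.2, 26.6 and 22 CPM with PMA, against 13.8, 10.6, 14.5 and 12.1 CPM without, in ND mice, with a log2 fold change of 0.86 ± 0.21 (SE, adjusted p = 0.00765). In HFD mice Col23a1 had 20.1, 14.1, 19.6 and 13.4 CPM with PMA and 13, 14.1, 11.5 and 14.1 CPM without, with overlapping groups (log2 fold change 0.36, adjusted p = 0.318).

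Limits differ between the diets. Here too, counts under other fits stand without the share of all genes called in the same fit. Changes in them are not shown to be particular to the chains. In HFD mice the count was 7 without replicate 1 of the untreated group, which leaves RHP libraries only, and 6 of these were among the 7 chains above; the other was Col18a1, which was higher with PMA there. It was 4 without replicate 2 of the PMA-treated group and 0 without the 4 libraries highest in growing hair markers, which leaves 1 untreated HFD library. In ND mice, where PMA and the ID series cannot be told apart, 0 of the 11 chains were called with the series as a covariate. The 1 chain called there was Col6a5, which rests on the untreated ND libraries with 0 counts. The count was 7 without replicate 3 of the untreated group.

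**Figure D3:**
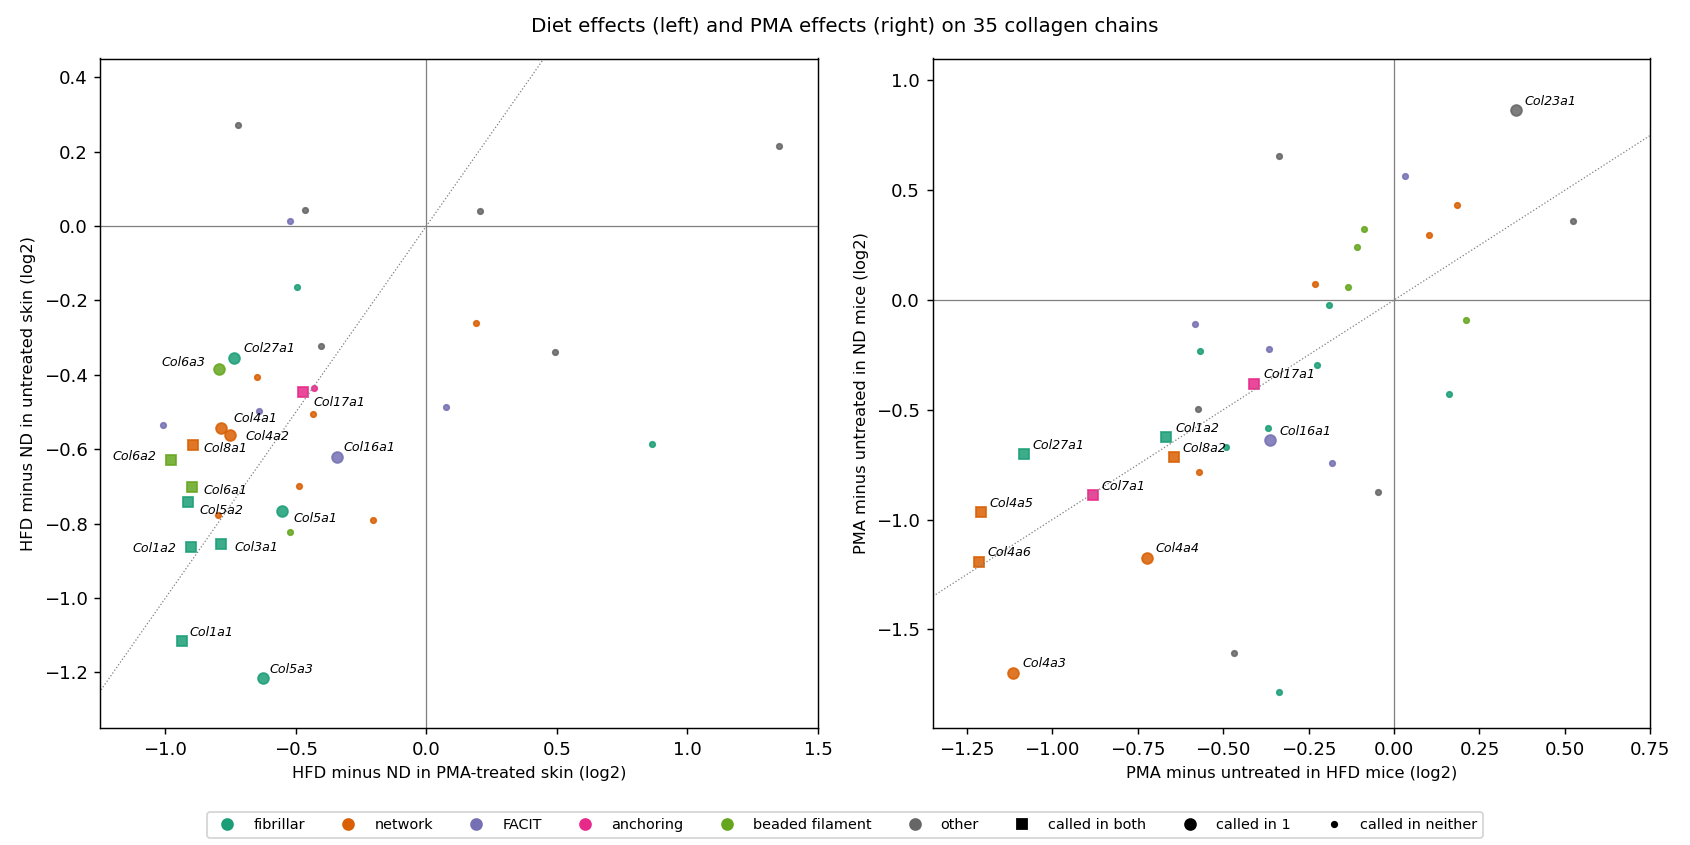
Log2 fold changes of the 35 tested chains other than Col6a5, with HFD minus ND in PMA-treated skin against the same in untreated skin (left) and PMA minus untreated in HFD mice against the same in ND mice (right); colours give the class, squares are called in both contrasts, circles in 1, small points in neither, and the dotted line marks equal values. The 8 squares on the left are fibrillar, beaded filament, Col8a1 and Col17a1 chains, and the 7 squares on the right include Col4a5, Col4a6, Col7a1 and Col17a1.

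Ratios between chains within a library do not depend on how libraries are scaled, and 5 ratios were compared in 4 contrasts (20 two-sided exact permutation tests, 4 libraries against 4). The smallest p that this design allows is 0.0286. It was reached in 5 tests, and after adjustment over the 20 tests 0 were below 0.05, the smallest adjusted p being 0.114; with 4 libraries against 4, a few differing ratios among 20 tests cannot pass this adjustment. The ratio of Col3a1 to Col1a1, both per kb, was 0.686, 0.808, 0.65 and 0.703 in PMA-treated HFD skin and 0.623, 0.623, 0.569 and 0.71 in PMA-treated ND skin. In untreated skin it was 0.557, 0.559, 0.587 and 0.628 on HFD and 0.475, 0.482, 0.436 and 0.547 on ND. The PMA libraries were above the untreated libraries of the same diet without overlap, with differences of 0.28 in HFD mice and 0.38 in ND mice on the log2 scale. In untreated skin the HFD libraries were above the ND libraries by 0.27 (exact permutation p = 0.0286 in each of these 3 tests), and in PMA-treated skin the difference between diets was 0.17 with overlap (exact permutation p = 0.114). The ratio of Col1a1 to Col1a2, the chains of 1 trimer, was 2.68, 2.37, 2.45 and 2.15 in untreated HFD skin and 2.69, 2.82, 3.23 and 2.78 in untreated ND skin, a log2 difference of -0.26 (exact permutation p = 0.0286). In PMA-treated skin the difference of that ratio between diets was -0.04 (exact permutation p = 0.80). The ratio of Col7a1 to Col17a1 was 0.0162, 0.0158, 0.0138 and 0.018 with PMA and 0.0239, 0.0206, 0.0231 and 0.0211 without in HFD mice, a log2 difference of -0.48 (exact permutation p = 0.0286). In ND mice the difference was -0.54, with overlap (exact permutation p = 0.0571). The ratio of Col4a1 to Col4a2 differed by 0.01 to 0.12 and that of Col6a1 to Col6a2 by -0.17 to 0.05 on the log2 scale over the 4 contrasts, with overlapping groups in each.

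**Figure D4:**
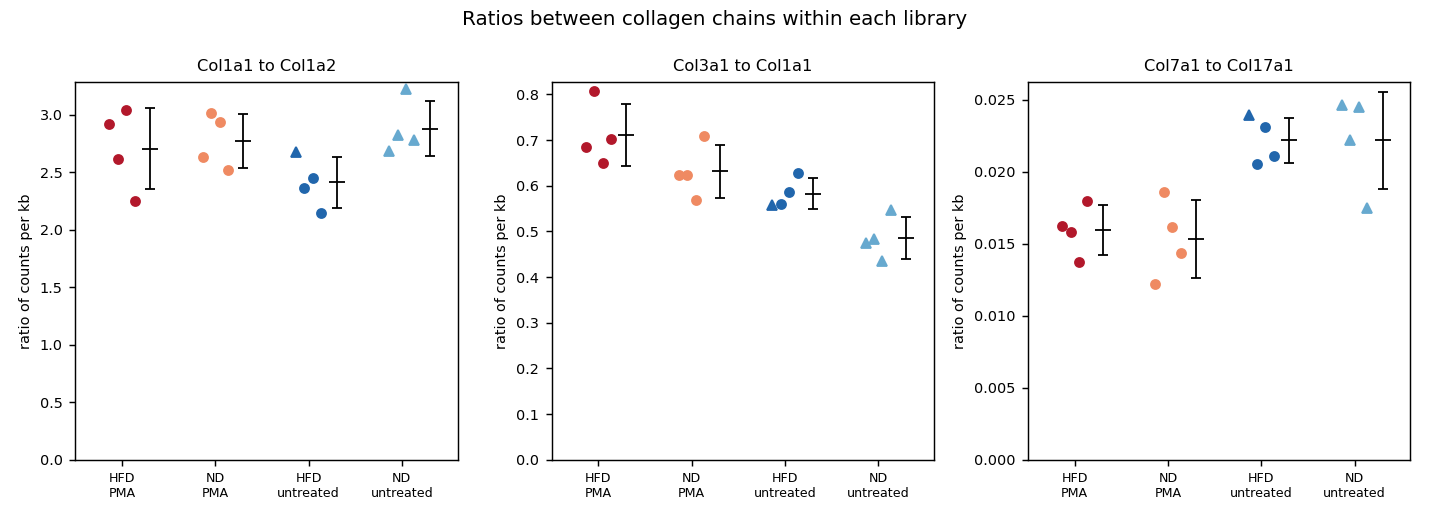
Ratio of counts per kb (vertical axes, from 0) of Col1a1 to Col1a2, Col3a1 to Col1a1 and Col7a1 to Col17a1 in each library, in the group order PMA-treated HFD, PMA-treated ND, untreated HFD and untreated ND; circles are RHP and triangles RHS libraries, and bars show the mean ± SD of 4. The Col3a1 to Col1a1 ratio is 0.65 to 0.808 in PMA-treated HFD skin and 0.436 to 0.547 in untreated ND skin.

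The enzymes and chaperones that modify, fold, cut and cross-link collagen were counted beside the chains. Of 30 genes of collagen maturation, 0 were higher and 3 lower on HFD in PMA-treated skin (median log2 fold change -0.32): Serpinh1, the collagen chaperone HSP47 (-0.74, adjusted p = 0.0364), Loxl4, a cross-linking oxidase (-0.99, adjusted p = 0.0271), and Adamts14, a procollagen N-proteinase (-1.12, adjusted p = 0.00604). In untreated skin 1 was higher and 5 lower on HFD (median -0.31), with P4ha2, a catalytic subunit of prolyl 4-hydroxylase, at -0.83 (adjusted p = 0.00969), Adamts14 at -0.86 (adjusted p = 0.0149) and Lox, the lysyl oxidase that cross-links fibrils, at -0.67 (adjusted p = 0.0164). Serpinh1, named in every contrast after its values were seen, was lower in untreated skin too (-0.70, adjusted p = 0.0355). With PMA, Serpinh1 rose in HFD mice to 192 ± 20.9 CPM with PMA, against 120.2 ± 11.6 CPM without, and in ND mice to 319 ± 94.1 CPM with PMA, against 196 ± 51.4 CPM without (SD, n = 4 each, adjusted p = 0.0194 and 0.0125). P4hb, a subunit of prolyl 4-hydroxylase and a general disulfide isomerase, rose as well (log2 fold changes 0.90 and 0.99, adjusted p = 0.000127 and 2.49e-05). Pcolce2, an enhancer of procollagen C-proteinase, fell (log2 fold changes -0.64 and -0.66, adjusted p = 0.00722 and 0.00486), as did Adamts14 in both diets (-0.96 and -0.69, adjusted p = 0.00278 and 0.0198), named for ND mice after its values were seen. In all, PMA gave 3 higher and 2 lower of the 30 in HFD mice and 4 higher and 3 lower in ND mice, with medians of 0.00 and 0.08. Of all tested genes, 7.34% were higher and 4.6% lower in HFD mice, and 8.96% higher and 3.99% lower in ND mice. Of 12 partners on the fibril surface and in the matrix, 0 were higher and 4 lower on HFD in PMA-treated skin (median -0.53), among them Thbs1, a matrix glycoprotein (-0.71, adjusted p = 0.00171), the proteoglycan Bgn (-0.66, adjusted p = 0.00319) and Fn1, fibronectin (-0.93, adjusted p = 0.0103). In untreated skin 0 were higher and 2 lower, Fn1 (-0.67) and Lum (-0.47), with a median of -0.34. Between diets, 1.26% of all tested genes were lower in PMA-treated skin and 1.06% in untreated skin.

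Markers of cells that make collagen were read in the same libraries. The shares of all tested genes called are those given above for each contrast. Of 11 fibroblast markers, 0 were called between diets in PMA-treated skin and 1, Lum, was lower in untreated skin, with median log2 fold changes of -0.37 and -0.40. Their summed levels were 2215 to 3069 CPM in PMA-treated HFD skin, 2962 to 3449 CPM in PMA-treated ND skin, 3044 to 3513 CPM in untreated HFD skin and 3363 to 4728 CPM in untreated ND skin, and 0 of the markers were at 0 in all libraries. The summed fibrillar chains over the summed fibroblast markers gave a ratio of 1.39, 0.856, 1.27 and 0.974 in PMA-treated HFD skin and 1.19, 2.53, 1.55 and 1.52 in PMA-treated ND skin. In untreated skin the ratio was 1.49, 1.05, 1.21 and 1.02 on HFD and 1.24, 1.60, 2.25 and 2.47 on ND. The mean of this ratio was lower on HFD in both conditions and the groups overlapped. For the summed beaded filament chains over the same markers, the ratio was 0.247, 0.206, 0.224 and 0.203 in PMA-treated HFD skin and 0.297, 0.441, 0.333 and 0.275 in PMA-treated ND skin, without overlap. In untreated skin it was 0.165 to 0.22 on HFD and 0.182 to 0.29 on ND, with overlap. Of 11 keratinocyte markers, 2 were called higher on HFD in PMA-treated skin and 5 in untreated skin, and 0 lower (medians 0.22 and 0.40). These were led by Krt1 and Sfn in PMA-treated skin and Krt1, Krt10 and Sfn in untreated skin. The fold change was below 0 for 3 of the 11 markers in PMA-treated skin and for 2 in untreated skin. In untreated skin all HFD libraries lay above all ND libraries in 7 markers and below them in 1. The keratinocyte chains Col17a1 and Col7a1 together, over these markers, gave 0.0291, 0.0313, 0.0291 and 0.0329 in PMA-treated HFD skin and 0.0423, 0.0523, 0.0452 and 0.044 in PMA-treated ND skin, and 0.0372, 0.0358, 0.0382 and 0.0437 on HFD and 0.0594, 0.0604, 0.0712 and 0.0753 on ND in untreated skin. Here the groups of the 2 diets were apart with and without PMA. Col17a1 made up most of the summed chains and was itself apart in both conditions. The summed markers went the other way in untreated skin, at 53893 to 60268 CPM on HFD and 44866 to 46585 CPM on ND. With PMA they were 49551 to 58948 CPM on HFD and 45172 to 54991 CPM on ND. The ratio is therefore no separate result on chain message per keratinocyte. Endothelial markers, which stand for cells that make Col4a1 and Col4a2, had medians of -0.49 and -0.45 for the diet effects in PMA-treated and untreated skin, with 0 of 8 called in each. Mural cell, Schwann cell, skeletal muscle and adipocyte markers gave 0, 1, 0 and 0 called in PMA-treated skin and 0, 0, 0 and 1 in untreated skin, all called ones lower on HFD. Cartilage markers had 2 of 6 tested lower on HFD in PMA-treated skin and 0 of 6 in untreated skin, and 1 of the 7 in the table was at 0 in every library. Growing hair markers had 0 and 2 of 9 called higher on HFD. Of 8 leukocyte markers, 0 were higher on HFD and 1, Csf1r, was lower in both conditions (medians -0.06 and -0.14). Their summed levels were 773 to 1810.1 CPM in PMA-treated HFD skin and 729.8 to 1101 CPM in PMA-treated ND skin, and 456 to 577 CPM on HFD and 572 to 673 CPM on ND in untreated skin. In PMA-treated skin the HFD libraries lay above the ND libraries in 2 of the 8 and below them in 1. With PMA, leukocyte markers rose, 6 of 8 in HFD mice and 4 of 8 in ND mice, and adipocyte markers fell, 3 of 6 in HFD mice and 4 of 6 in ND mice. Keratinocyte markers changed in both directions with PMA (3 higher and 2 lower in HFD mice, 4 higher and 1 lower in ND mice), as fibroblast markers did in ND mice (1 higher, 1 lower), where 2 of 11 were lower in HFD mice. Called with PMA in HFD and ND mice were 0 and 0 of 8 endothelial markers, 0 and 2 of 7 mural, 1 and 2 of 6 Schwann cell, 2 and 0 of 7 tested skeletal muscle, 2 and 0 of 6 tested cartilage and 0 and 0 of 9 growing hair markers, all lower with PMA except 1 mural marker in ND mice. The part of these marker changes in the collagen results was not tested.

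**Figure D5:**
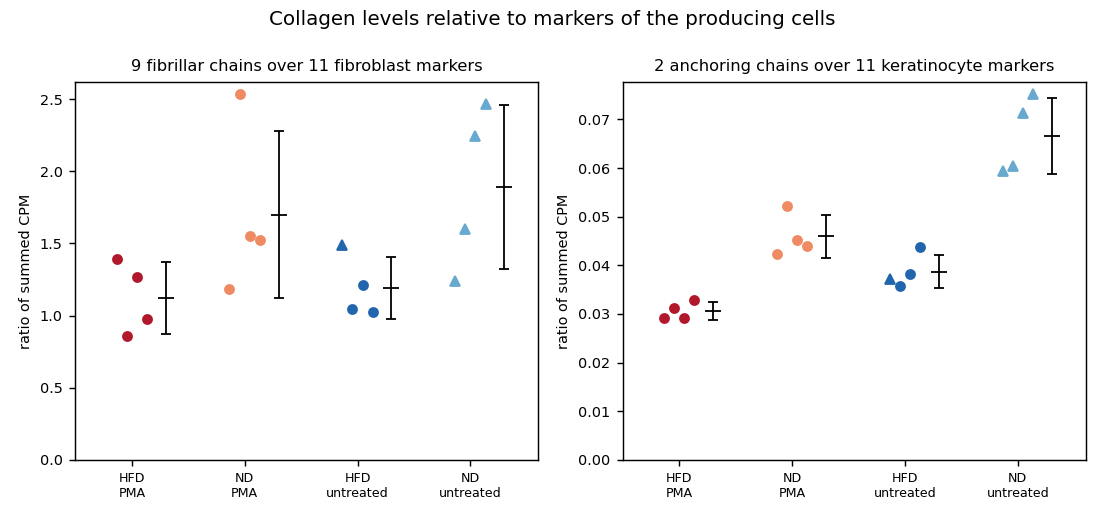
Ratio of summed CPM (vertical axes, from 0) of the 9 fibrillar chains to 11 fibroblast markers and of the 2 anchoring chains to 11 keratinocyte markers in each library, in the group order PMA-treated HFD, PMA-treated ND, untreated HFD and untreated ND; circles are RHP and triangles RHS libraries, and bars show the mean ± SD of 4. The anchoring ratio is 0.0291 to 0.0329 in PMA-treated HFD skin against 0.0423 to 0.0523 in PMA-treated ND skin, and the fibrillar ratio overlaps between the diets.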

How the data were processed

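Ear skin RNA of 16 mice was sequenced as SMART-Seq2 cDNA on an Illumina instrument, per the labels' protocols; this library type amplifies by PCR and keeps neither strand nor molecular identifiers, so that counting errors do not separate duplicates from molecules. The authors deposited 1 table of raw counts per gene with a gene length in bases, a value of another kind than counts, which was used for levels per kb. Per the submitters' processing notes, which give no roles, the tools include STAR 2.3 and featureCounts 1.5 and the builds GRCm38 and mm10; the sources used here do not state the strand setting or the annotation release. Of the columns of per-sample values, 0 were left unmapped, and 0 entries named no gene or an ERCC spike-in.

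The low-count filter was filterByExpr with the groups (at least 10 counts, total at least 15). After TMM scaling, all 16 libraries entered 1 robust quasi-likelihood fit of group means in edgeR 4.0.16 under R 4.3.3, with Benjamini-Hochberg adjustment over 17604 genes and a threshold of 0.05. SEs are the absolute log2 fold change over the square root of F. P-values measure the spread between these mice. Chain ratios were compared by two-sided exact permutation tests. Groups share replicate numbers, but deviations of same-numbered libraries correlated at -0.07 to 0.20, so the numbers were not taken as pairs. The procedure was tested on simulated data. Alternatives were DESeq2 1.42.0, other scaling factors, other filters, a replicate block, the ID series as a covariate, a fit of the compared libraries only and leaving out each library.

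The members and the gene lists were chosen with earlier results of these data known. For each contrast the text names the called chains in order of adjusted p, at most 12, with full statistics for up to 8. Without calls it names the 2 with the smallest p, always 12 main chains, and at most 3 called genes per other list. Classes follow textbook usage. Positions are those of GENCODE M21 matched by gene ID (39 of 39), and promoters those of RefSeq matched by symbol.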

Additional observations from a re-analysis of the deposited data

Results flagged for a closer look

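Among 116 sets of 4 libraries of 1 group, made from the levels of 24 named chains and the 5 chain ratios, 8 held a library whose gap to its nearest neighbour exceeded Dixon's critical share of the whole range of its group. Chance flags about 1 in 20 such groups. In replicate 2 of PMA-treated ND skin, Col14a1 stood at 49.3 CPM against 22.4 to 24.1 CPM in the other 3 libraries, Col27a1 at 56.2 CPM against 39.8 to 41.2 CPM, and Col8a2 at 119 CPM against 67.8 to 71.4 CPM. In replicate 4 of PMA-treated HFD skin, Col4a6 stood at 19.2 CPM against 9.34 to 10.7 CPM, and Col7a1 at 60.2 CPM against 40.7 to 42.5 CPM. In replicate 3 of untreated ND skin, Col4a2 stood at 101 CPM against 77.8 to 81.6 CPM, and Col8a2 at 187 CPM against 114 to 121 CPM. The log2 ratio of Col4a1 to Col4a2 was -0.14 in replicate 1 of untreated ND skin, against 0.14 to 0.15 in the other 3.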

How the results depend on the processing

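Of the 41 fold changes of called chains, 0 changed sign under any alternative that was run. The signs of chains not called were not followed, but alternatives also added calls. Those added between diets were all lower on HFD. Those added for PMA were lower with PMA, except Col18a1 in HFD mice and Col6a5 in ND mice, which were higher. For PMA in ND mice, Col1a1 was called with RLE or upper-quartile scaling factors and with the chains left out of the scaling, and Col5a1 with DESeq2. For diets, DESeq2 added Col4a6 in both conditions and Col4a2 in untreated skin. These are examples. Between diets, 12 chains were called in PMA-treated skin; 5 were called with only the 8 libraries compared, 4 without the 4 libraries highest in growing hair markers, and 5 to 12 when 1 library was left out. For diets in untreated skin (11 chains) the count was 0 with the ID series as a covariate, 0 without those 4 libraries, and 2 to 11 when 1 library was left out. For the PMA effect in HFD mice (7 chains) it was 0 without those 4 libraries and 4 to 9 when 1 library was left out. For the PMA effect in ND mice (11 chains) it was 1 with the ID series as a covariate, which was Col6a5 and none of the 11, and 7 to 13 when 1 library was left out. Without the 4 libraries the median log2 fold change over the 36 chains was -0.56, -0.47 and -0.37 in these first 3 contrasts, beside -0.59, -0.52 and -0.36 with all libraries. The causes of the lost calls were not tested; leaving out the 4 libraries leaves 1 untreated HFD library, and the covariate leaves the ND contrast of PMA to 1 bridging library. The interaction gave 0 chains in each fit. With the replicate number as a block the counts were 11, 12, 7, 11 and 0 in the order of the contrasts above and the interaction, although the numbers are not shown to pair mice: same-numbered libraries deviated together at r of -0.07 to 0.20. Other counts, by scaling, filter and DESeq2, stayed within 1.5 times. None of these counts is set beside the calls over all genes in the same fit, so their changes are not shown to be particular to the chains. At 1 CPM a library had about 8 to 16 counts, so that chains at a few CPM, such as Col4a3, rest on few counts.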

Other observations

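Genes that bind or break down collagen were also counted, and the shares of all tested genes called are those given above for each contrast. Of 14 receptors and proteases, 0 were higher and 2 lower on HFD in PMA-treated skin and 0 higher and 1 lower in untreated skin; Mmp2, a gelatinase made by fibroblasts, was lower in both (log2 fold changes -0.60 and -0.61, adjusted p = 0.0152 and 0.00785). With PMA, 3 were higher and 3 lower in HFD mice and 1 was higher and 4 lower in ND mice, and Mmp2 fell in both (log2 fold changes -0.66 and -0.67, adjusted p = 0.00149 and 0.000967). In HFD mice the matrix protease Mmp9 rose (1.54, adjusted p = 0.00991) and the lysosomal protease Ctsk fell (-0.71, adjusted p = 0.0159). In ND mice the collagen receptor Ddr2 rose (0.67, adjusted p = 0.00705) and the related Ddr1 fell (-0.49, adjusted p = 0.0102). Of 11 TGF-beta genes, Tgfb3 was lower in each of the 4 contrasts (log2 fold changes -0.72 and -0.63 for HFD in PMA-treated and untreated skin, -0.78 and -0.69 for PMA in HFD and ND mice), and the other 10 were not called in any of them.

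The 5 cartilage chains had summed levels of 44.2 to 66 CPM in PMA-treated HFD skin, 68.2 to 138 CPM in PMA-treated ND skin, 106 to 144 CPM in untreated HFD skin and 143 to 194 CPM in untreated ND skin. They were lower on HFD in 2 of 5 chains in PMA-treated skin and 0 of 5 in untreated skin, and lower with PMA in 4 of 5 in HFD mice and 3 of 5 in ND mice.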
